A study of Mus musculus with 8 samples.

Results

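The mRNAs of 10 nuclear receptors that meet the corepressor NCoR were followed in mouse thymocytes with and without Hdac3, the histone deacetylase of its complex. They are the retinoic acid receptors Rara and Rarg, the retinoid X receptors Rxra and Rxrb, the Rev-erb receptors Nr1d1 and Nr1d2, the glucocorticoid receptor Nr3c1, the thyroid hormone receptor Thra, the fatty acid receptor Ppard and the vitamin D receptor Vdr. They were chosen by name, and all 10 are among the 23278 genes that each of the 4 deposited tables lists. Another 37 nuclear receptor genes are in the same tables. Binding by NCoR was not measured in these samples and is background only.

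RNA came from CD4+CD8+ double-positive (DP) thymocytes of C57BL/6 mice that were also GFP+ in the sort. Hdac3KO animals were Hdac3F/F with LCK-Cre, a Cre expressed from a T-lineage promoter, and WT animals were Hdac3+/+. DP2 cells had high CD5 and intermediate TCRβ, and DP1 cells had low CD5 and low TCRβ. The 4 groups (Hdac3KO DP2, WT DP2, Hdac3KO DP1 and WT DP1) had 2 libraries each, made from pools of ribosomal-RNA-depleted RNA, 8 samples in all. The labels do not say what made the cells GFP+, whether WT animals carried Cre, or the animals' age. They also do not say whether the libraries of a group came from separate animals, so the spread behind the p-values may be technical.

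Nuclear receptors are transcription factors whose ligand-binding domain recruits either corepressors or coactivators. Without ligand, retinoic acid, thyroid hormone and vitamin D receptors sit on DNA as partners of RXR and can hold NCoR, which brings Hdac3 with it, and a ligand exchanges it for coactivators. The Rev-erb receptors lack the helix that coactivators dock on and act as lasting repressors through NCoR and Hdac3, best known from the circadian clock. The glucocorticoid receptor waits in the cytoplasm with chaperones of the Hsp90 family, and DP thymocytes are known for dying when glucocorticoids activate it.

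Levels are the authors' FPKM (fragments scaled by transcript length and library size), 1 value per gene and group. Each table was scaled on its own, so a group has 1 FPKM in its genotype table and another in its stage table. A change is the log2 ratio of the 2 FPKM in a table. It is given ± a standard error worked back from the deposited p-value, and it is called higher or lower where the authors' deposited q (the p of Cuffdiff adjusted over all tested genes) is 0.05 or less. Values per library and total counts were not used here, so the depth is unknown and no SD can be given. Hdac3 itself was at 11.7 FPKM in Hdac3KO DP1 cells and 38.1 in WT DP1 cells (q = 0.000879 in the authors' deposited table), which left 30.7%. In DP2 it was at 15.4 FPKM in Hdac3KO cells and 29.7 in WT cells (q = 0.0131 in the authors' deposited table), which left 51.9%. Xist was at 208 and 139 FPKM in the Hdac3KO groups of DP1 and DP2, against 0.0945 and 0.243 FPKM in the WT groups, and the Y-linked gene Kdm5d was at 0.264 and 0.322 FPKM in the Hdac3KO groups, against 20.0 and 34.6 FPKM in the WT groups. Genotype and sex therefore cannot be told apart in any comparison of Hdac3KO with WT. The median gene with at least 10 FPKM in both groups lay at -0.11 between genotypes in DP1, 0.12 between genotypes in DP2, -0.33 between stages in WT and -0.01 between stages in Hdac3KO. Changes below are as deposited, and the split of all called genes depends on this shift. In DP1, 1120 genes were higher and 1358 lower as deposited, and 1431 were higher and 941 lower after centring on that median. In DP2 the split was 687 higher and 461 lower as deposited and 464 higher and 612 lower after centring, and between WT stages it was 603 higher and 1818 lower, against 1181 higher and 703 lower after centring. Removing the trend with transcript length gave 841 higher and 555 lower in DP1, 435 higher and 570 lower in DP2, and 840 higher and 465 lower between WT stages.

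Markers of DP cells were expressed in every group: Cd8b1 was at 1383 FPKM in Hdac3KO DP2 and 639 in WT DP2 cells, and Cd4 at 392 FPKM in Hdac3KO DP2 and 208 in WT DP2 cells, both called in the authors' deposited table. None of 9 such markers that were tested was called between genotypes in DP1 by the deposited Cuffdiff q (1 had an unadjusted p under 0.05, as lower), and 4 were higher in Hdac3KO DP2 cells. Of all tested genes 23.6% were called in DP1, and 6.44% were higher in Hdac3KO DP2 cells. Among markers of other cells, the 7 myeloid markers in the tables summed to 13.8 FPKM in Hdac3KO and 6.49 in WT DP1 cells, and to 22.6 FPKM in Hdac3KO and 8.79 in WT DP2 cells. Itgam made up most of the sum in the Hdac3KO groups and less of it in the WT groups, with 9.58 FPKM in Hdac3KO DP1 against 2.40 in WT DP1, and 15.7 FPKM in Hdac3KO DP2 against 1.60 in WT DP2. Cd68 was at 3.61 FPKM in Hdac3KO DP1 against 2.98 in WT DP1, and at 3.43 FPKM in both DP2 groups, and Cd14 was at 0 in both DP1 groups. Lyz2 went the other way, at 0.122 FPKM in Hdac3KO and 0.666 in WT DP1 cells, and 2.50 and 2.80 FPKM in DP2. Csf1r was higher in Hdac3KO in DP1 and lower in DP2, Emr1 the reverse, and Itgax was higher in both. Cuffdiff did not test Lyz2, Csf1r, Emr1 or Itgax. The 7 markers of double-negative thymocytes summed to 31.1 FPKM in Hdac3KO and 55.0 in WT DP1 cells, and to 50.7 FPKM in Hdac3KO and 231 in WT DP2 cells. Among them Hhex was at 21.3 FPKM in Hdac3KO DP2 and 221 in WT DP2 cells, while Il2ra was at 26.3 and 4.41 FPKM in the same groups. The 5 markers of regulatory T cells summed to 41.3 FPKM in Hdac3KO and 40.0 in WT DP1 cells, and to 65.7 FPKM in Hdac3KO and 116 in WT DP2 cells. Among them Ikzf2 was at 24.0 FPKM in Hdac3KO DP2 and 94.8 in WT DP2 cells, while Il2ra, also on this list, ran the other way and Foxp3 was at 0.671 and 0.693 FPKM in the same groups. Between stages in WT cells, where 16.8% of all tested genes were lower as deposited, 6 of the 9 tested DP markers were lower in DP2 as deposited, 2 after centring and 0 with the length trend removed. Their list summed to 3185 FPKM in WT DP2 and 6976 in WT DP1 cells, with a median log2 change of -1.05 beside -0.27 for all tested genes. The double-negative markers summed to 218 FPKM in WT DP2 and 62.9 in WT DP1 cells, of which Hhex was at 208 and 54.8 FPKM. Between stages in Hdac3KO cells the DP markers summed to 6680 FPKM in DP2 and 6898 in DP1, and 1 of 9 was lower, beside 4.65% of all tested genes. The part of these markers in the results below was not tested. In RNA from sorted populations, fewer cells of a type and less RNA per cell cannot be told apart.

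Per transcript length, the 10 receptors covered a wide range of levels, from Nr3c1 down to receptors under 1 FPKM. Nr3c1 stood between 52.1 and 88.4 FPKM over its 8 group values, in percentiles 93.4 to 96.6 of all listed genes. It ranked 2nd of the 47 nuclear receptors in every group. Rara (12.5 to 29.0 FPKM), Rxrb (12.5 to 20.1 FPKM) and Thra (7.78 to 16.8 FPKM) formed a middle tier. Ppard (4.39 to 6.27 FPKM) and Nr1d2 (2.87 to 7.74 FPKM) came next. Nr1d1 (0.592 to 1.88 FPKM), Rarg (0.401 to 1.09 FPKM), Rxra (0.225 to 0.955 FPKM) and Vdr (0.217 to 0.357 FPKM) were low in all groups. Cuffdiff left Rarg, Rxra and Vdr untested in all 4 tables and Nr1d1 untested in 2 of them, so a change of these receptors often has values but no test.

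**Figure D1:**
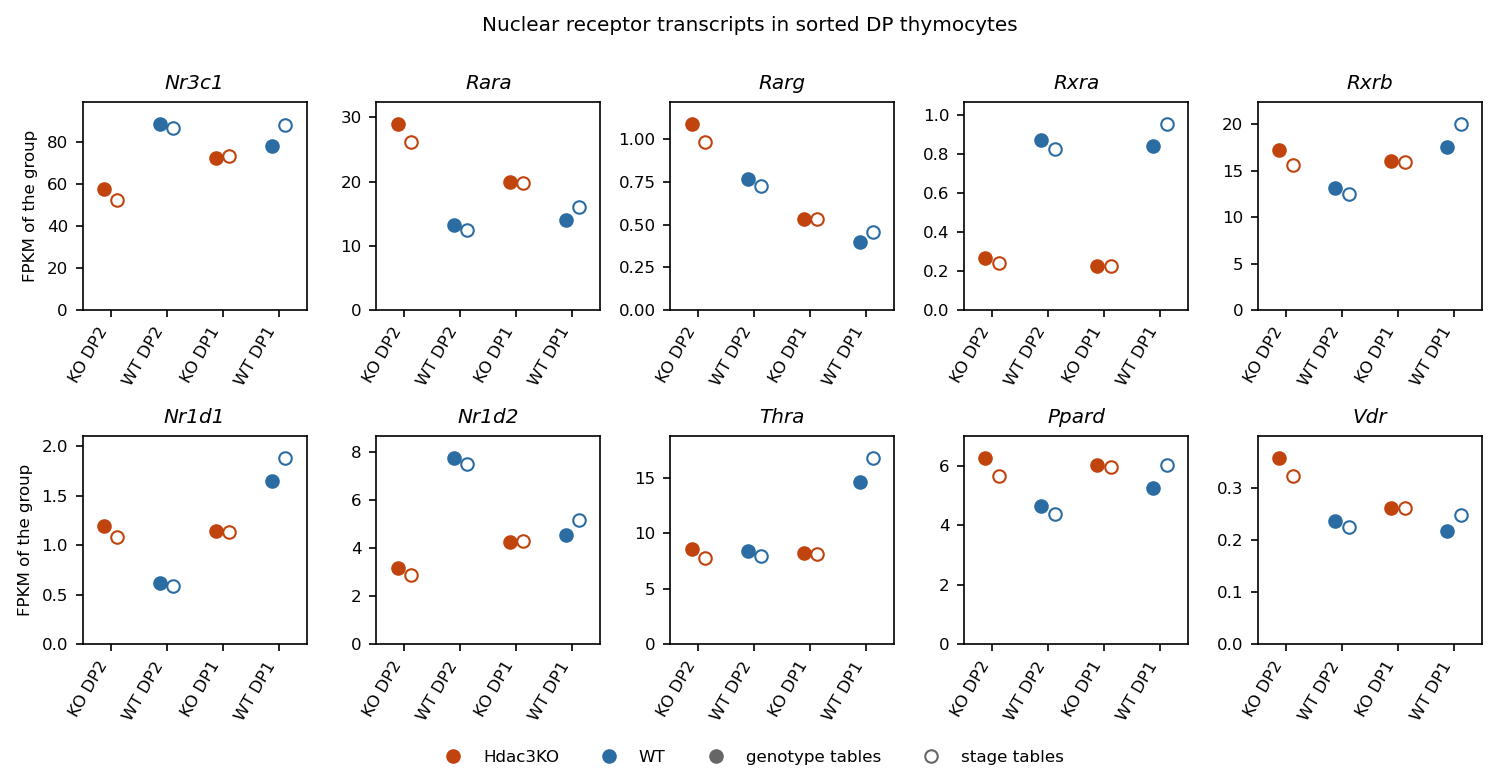
FPKM of the 10 receptors (vertical axes, linear from 0) in Hdac3KO DP2, WT DP2, Hdac3KO DP1 and WT DP1 cells (horizontal axes), with filled points from the genotype tables and open points from the stage tables; each point is the authors' 1 value for a group, with no error bar. Rara is highest in Hdac3KO DP2 at 29.0 FPKM, Thra is highest in WT DP1 at 14.7 and 16.8 FPKM, and Rxra lies under 0.3 FPKM in both Hdac3KO groups.

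In each comparison 0 to 2 of the 6 or 7 tested receptors passed the deposited test, and the share of all tested genes is given beside them. In Hdac3KO against WT DP1 cells, 0 of 7 tested receptors were higher and 1, Thra, was lower by Cuffdiff's q, where 10.7% of all 10511 tested genes were higher and 12.9% lower, 23.6% in all. At an unadjusted p under 0.05, Rara also counted as higher there. In DP2 cells, 1 of 6 tested receptors was higher in Hdac3KO, Rara, and 1 was lower, Nr1d2, where 6.44% of all 10674 tested genes were higher and 4.32% lower, 10.8% in all. In WT DP2 against WT DP1 cells, 0 of 7 were higher and 2 were lower, Nr1d1 and Thra, where 5.56% of 10851 tested genes were higher and 16.8% lower, 22.3% in all. No receptor was higher there at an unadjusted p under 0.05 (0 by Cuffdiff), and 3 were lower. In Hdac3KO DP2 against Hdac3KO DP1 cells, 0 of 6 tested receptors were called in either direction by Cuffdiff, where 1.78% of 10231 tested genes were higher and 4.65% lower, 6.43% in all, and 1 receptor, Nr3c1, had an unadjusted p under 0.05. The median change of the tested receptors was -0.11 in DP1 and 0.21 in DP2 between genotypes, beside -0.10 and 0.10 for all tested genes. Between stages it was -0.46 in WT and -0.08 in Hdac3KO, beside -0.27 and 0.01 for all tested genes.

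**Figure D2:**
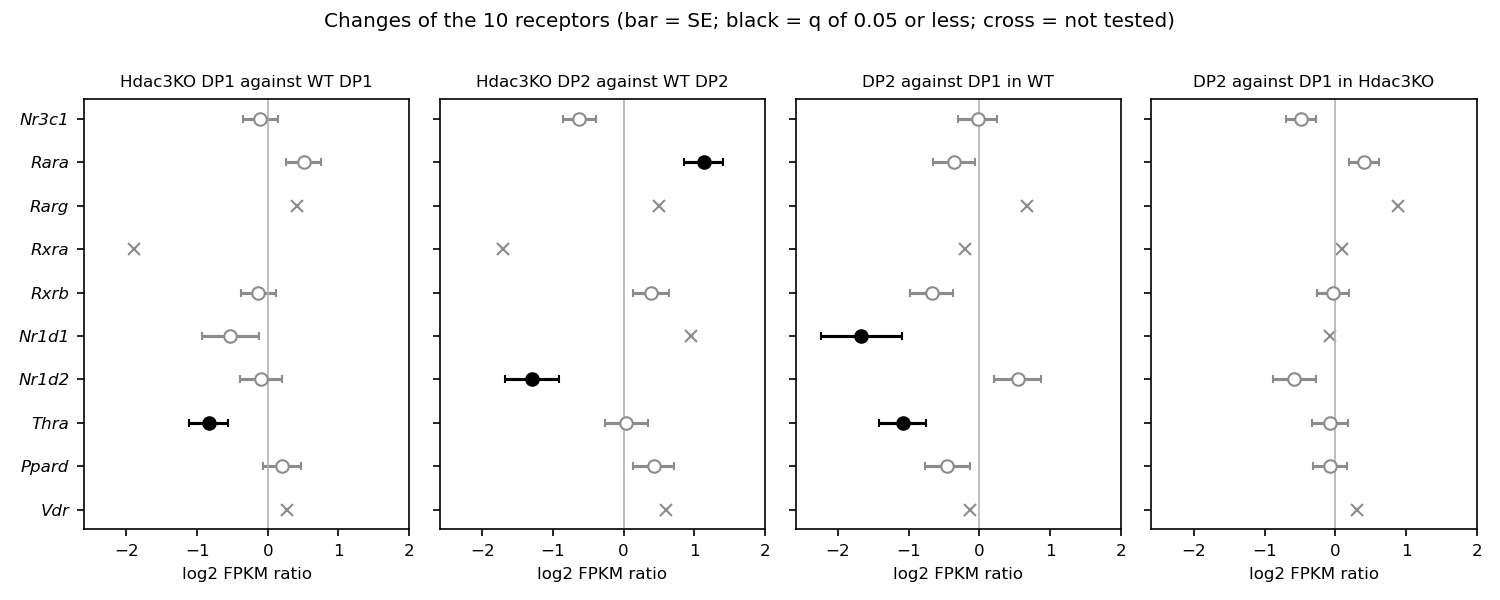
Log2 FPKM ratio (horizontal axes) of each receptor (rows) in the 4 comparisons, with bars for the standard error worked back from the deposited p, black for a deposited q of 0.05 or less and crosses for receptors that Cuffdiff did not test. Black points are Thra at -0.84 in DP1 between genotypes, Rara at 1.13 and Nr1d2 at -1.29 in DP2 between genotypes, and Nr1d1 at -1.67 and Thra at -1.08 between WT stages.

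Rara was the one receptor called higher in any comparison. It encodes retinoic acid receptor α, which binds DNA with RXR and holds NCoR until retinoic acid arrives. It was at 29.0 FPKM in Hdac3KO DP2 cells and 13.2 FPKM in WT DP2 cells, 2.19-fold higher. The log2 change was 1.13 ± 0.28 (q = 0.00134 in the authors' deposited table), and because its p of 5e-05 is the smallest that the deposited test gives, this standard error is an upper bound. In DP1 the levels were 19.9 FPKM in Hdac3KO and 14.0 FPKM in WT cells, a log2 change of 0.51 ± 0.25 that did not pass after adjustment (p = 0.0416 and q = 0.123 in the authors' deposited table). Between stages it was at 26.2 FPKM in DP2 and 19.7 in DP1 cells of Hdac3KO (0.41 ± 0.21, q = 0.321 in the authors' deposited table). In WT it was at 12.5 FPKM in DP2 and 16.0 in DP1 cells (-0.36 ± 0.29, q = 0.391 in the authors' deposited table). From high to low the order was Hdac3KO DP2, Hdac3KO DP1, WT DP1 and WT DP2. No pair of neighbours in that order differed past the threshold, while Hdac3KO DP2 and WT DP2, its ends, did.

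The authors' locus of Rara on mm10 is chromosome 11, 98937696 to 98974942, plus strand. Rara, Nr1d1 and Nr1d2 are the receptors that were called in some comparison and have a promoter window in the RefSeq table (GRCm38.p6), so 1 window of each is shown here, 250 bases before to 50 bases after the transcription start, 5′ to 3′ on the gene's strand. Capitals mark matches on either strand to AGGTCA, the consensus core site of nuclear receptors, and to CACGTG, the E-box of the clock activators, and none of the 3 windows holds TTANGTAA, the D-box. These 3 words do not overlap each other in the windows.
Rara, chr11:98937446-98937745, plus strand: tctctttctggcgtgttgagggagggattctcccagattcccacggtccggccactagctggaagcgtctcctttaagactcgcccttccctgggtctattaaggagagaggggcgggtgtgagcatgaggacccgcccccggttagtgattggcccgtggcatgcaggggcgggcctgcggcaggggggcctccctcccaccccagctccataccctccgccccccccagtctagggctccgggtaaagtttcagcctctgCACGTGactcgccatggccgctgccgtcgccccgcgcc
Nr1d1, chr11:98775328-98775627, minus strand: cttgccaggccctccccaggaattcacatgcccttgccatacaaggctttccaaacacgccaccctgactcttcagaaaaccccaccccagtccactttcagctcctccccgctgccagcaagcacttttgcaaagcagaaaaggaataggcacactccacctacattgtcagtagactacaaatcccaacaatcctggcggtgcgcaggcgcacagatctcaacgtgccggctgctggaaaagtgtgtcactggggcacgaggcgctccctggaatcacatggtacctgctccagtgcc
Nr1d2, chr14:18239057-18239356, minus strand: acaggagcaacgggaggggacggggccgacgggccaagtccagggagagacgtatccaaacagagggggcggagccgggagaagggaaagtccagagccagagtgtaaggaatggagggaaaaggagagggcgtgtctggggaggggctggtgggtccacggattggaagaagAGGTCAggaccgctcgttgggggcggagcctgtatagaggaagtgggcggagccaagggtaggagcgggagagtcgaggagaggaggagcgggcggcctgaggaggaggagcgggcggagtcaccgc
The Rara window holds 1 CACGTG, whose first base lies 12 bases after the start (the start counted as 0), and the Nr1d2 window holds 1 AGGTCA, whose first base lies at -77. The Nr1d1 window has none of the 3 words. Of all 32851 promoter windows of this length, 16.3% hold AGGTCA, 7.15% hold CACGTG and 2.32% hold TTANGTAA on either strand, so such matches are common. The table has 14 windows for 8 of the 10 receptors, and among the windows not shown AGGTCA occurred in 1 window each of Rara, Rarg and Rxra.

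Rarg, the retinoic acid receptor γ, was low and untested: it was at 1.09 FPKM in Hdac3KO and 0.770 in WT DP2 cells, and at 0.537 FPKM in Hdac3KO and 0.401 in WT DP1 cells. It lay higher in DP2 than in DP1 within both genotypes. Rxra, the retinoid X receptor α, had the widest relative gap between genotypes of the receptors, without a test. It was at 0.266 FPKM in Hdac3KO and 0.873 in WT DP2 cells, 3.28-fold lower, and at 0.227 FPKM in Hdac3KO and 0.840 in WT DP1 cells, 3.70-fold lower. Both Hdac3KO values lie under both WT values. In the stage tables Rxra was at 0.241 FPKM in Hdac3KO DP2, 0.225 in Hdac3KO DP1, 0.828 in WT DP2 and 0.955 in WT DP1 cells. Those tables hold the same libraries, scaled anew, so they are not a second measurement. At levels under 1 FPKM and with unknown depth, the counting error of these values cannot be given.

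Rxrb, the retinoid X receptor β and more abundant here than Rxra, was not called in any comparison. It was at 17.3 FPKM in Hdac3KO and 13.2 in WT DP2 cells (log2 change 0.39 ± 0.26, q = 0.385 in the authors' deposited table), and at 16.0 FPKM in Hdac3KO and 17.5 in WT DP1 cells (-0.13 ± 0.25, q = 0.753 in the authors' deposited table). In WT cells it was at 12.5 FPKM in DP2 and 20.1 in DP1, a log2 change of -0.68 ± 0.30 (p = 0.0231 and q = 0.0832 in the authors' deposited table). In Hdac3KO cells it was at 15.6 FPKM in DP2 and 15.9 in DP1.

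Of 22 genes of retinoid metabolism and targets of retinoic acid receptors, 7 were tested, and they split in both directions. In DP1, 2 were higher in Hdac3KO cells and 1 was lower, where 10.7% of all tested genes were higher and 12.9% lower. The list's median log2 change was 0.56 beside -0.10 for all tested genes. Rarb, the retinoic acid receptor β and itself a classic retinoic acid target, was at 9.57 FPKM in Hdac3KO and 1.92 in WT DP1 cells (2.32 ± 0.57, q = 0.000879 in the authors' deposited table). Nrip1, a corepressor that binds liganded receptors, was at 87.4 FPKM in Hdac3KO and 44.4 in WT DP1 cells, and Dhrs3, which turns retinaldehyde back to retinol, was at 69.3 FPKM in Hdac3KO and 130.3 in WT DP1 cells. With the length trend removed, Rarb alone of these 3 kept its call. In DP2, where 10.8% of all tested genes were called, 0 of the 7 were called by Cuffdiff and 0 had an unadjusted p under 0.05. Rarb was at 8.68 FPKM in Hdac3KO and 6.51 in WT cells there. Between stages in WT cells 2 of the 7 were higher in DP2 and 1 was lower, where 5.56% of all tested genes were higher and 16.8% lower. Rarb was at 6.31 FPKM in DP2 and 2.18 in DP1 cells (1.54 ± 0.48, q = 0.0107 in the authors' deposited table), and Nrip1 at 84.5 FPKM in DP2 and 50.3 in DP1 cells (0.75 ± 0.28, q = 0.0410 in the authors' deposited table), a call that did not hold with the length trend removed. Dhrs3 fell to 51.5 FPKM in DP2, against 148 in DP1 cells. Between stages in Hdac3KO cells the α4 integrin gene Itga4 was the 1 called member, at 28.6 FPKM in DP2 and 43.9 in DP1 cells, which was not called with the length trend removed. With that trend removed, 1 gene of the list was called higher in DP2 and 0 lower. Of all tested genes 6.43% were called there as deposited.

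Each Rev-erb receptor was called lower in 1 comparison, and in the one that called Nr1d2, between genotypes in DP2, Nr1d1 was not tested. Nr1d2, Rev-erbβ (authors' locus chromosome 14, 18204056 to 18239106, minus strand), was 2.45-fold lower in Hdac3KO DP2 cells, at 3.16 FPKM, against 7.74 FPKM in WT DP2 cells. The log2 change was -1.29 ± 0.38 (q = 0.0114 in the authors' deposited table). In DP1 it was at 4.26 FPKM in Hdac3KO and 4.56 in WT cells, a log2 change of -0.10 ± 0.30 (q = 0.854 in the authors' deposited table) whose sign turned after centring, to 0.02. Its stage values run apart: 7.50 FPKM in DP2 and 5.16 in DP1 cells of WT (0.54 ± 0.34, q = 0.248 in the authors' deposited table), and 2.87 FPKM in DP2 and 4.29 in DP1 cells of Hdac3KO (-0.58 ± 0.31, q = 0.345 in the authors' deposited table). WT DP2 thus held the highest and Hdac3KO DP2 the lowest level, with the DP1 groups between them.

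Nr1d1, Rev-erbα, was much less abundant than Nr1d2 per transcript length in each group. In WT cells it fell to 0.592 FPKM in DP2, against 1.88 FPKM in DP1, 3.18-fold lower (log2 change -1.67 ± 0.58, q = 0.0242 in the authors' deposited table). That call did not hold after centring on the median gene (-1.34, q = 0.0907) or with the length trend removed (-1.25, q = 0.137). In DP1 it was at 1.14 FPKM in Hdac3KO and 1.65 in WT cells (-0.53 ± 0.40, q = 0.356 in the authors' deposited table). In DP2 it was at 1.20 FPKM in Hdac3KO and 0.619 in WT cells, a difference that Cuffdiff did not test. The pair of Hdac3KO values in the stage table, 1.08 FPKM in DP2 and 1.14 in DP1 cells, lay close together.

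Of 22 genes of the circadian clock and known Rev-erb targets, 11 were tested in each comparison. At most 1 of the 11 was called by Cuffdiff in any of them as deposited (1 of 11 in DP1 and in DP2 between genotypes, where 23.6% and 10.8% of all tested genes were called, 1 of 11 between WT stages beside 22.3%, and 0 of 11 between Hdac3KO stages beside 6.43%), and up to 5 had an unadjusted p under 0.05. Arntl (BMAL1), the clock gene that Rev-erb receptors repress, was not called: it was at 59.6 FPKM in Hdac3KO and 47.1 in WT DP2 cells, and at 45.6 FPKM in Hdac3KO and 41.7 in WT DP1 cells. Arntl is named here after its values were seen. Between stages in WT cells, 0 genes of the list were higher and 1 lower in DP2 as deposited, and after centring 2 were higher and 0 lower. At an unadjusted p under 0.05, as deposited, 2 were higher and 3 lower in DP2.

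Thra was the receptor called lower in 2 comparisons. It encodes thyroid hormone receptor α, which in mice also gives a splice form that does not bind hormone (authors' locus chromosome 11, 98741873 to 98765111, plus strand). In DP1 it was at 8.22 FPKM in Hdac3KO and 14.7 FPKM in WT cells, 1.79-fold lower (log2 change -0.84 ± 0.28, q = 0.0168 in the authors' deposited table). Between stages in WT it was at 7.93 FPKM in DP2 and 16.8 FPKM in DP1 cells, 2.12-fold lower (-1.08 ± 0.33, q = 0.00978 in the authors' deposited table). Both comparisons use the WT DP1 libraries, and only that group was high. In DP2 it was at 8.59 FPKM in Hdac3KO and 8.38 in WT cells (0.04 ± 0.30, q = 0.963 in the authors' deposited table), and in Hdac3KO cells at 7.78 FPKM in DP2 and 8.18 in DP1 (-0.07 ± 0.26, q = 0.955 in the authors' deposited table). With the length trend removed the DP1 change was -0.55 (q = 0.167), and the WT stage change was -0.75 after centring (q = 0.0984) and -0.62 with the length trend removed (q = 0.217), so those calls did not hold.

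Thra and Nr1d1 lie end to end on opposite strands. The authors' loci are 2823 bases apart, whereas in GENCODE M21 the genes overlap by 1075 bases, and long forms of Thra are known to run into the last exon of Nr1d1. The library kit keeps the strand, but whether the counting used it is not given in the sources used here. The overlap lies beyond the end of the authors' Thra locus. If the counting did not use the strand, reads of long Thra forms there could have been counted for Nr1d1. The fall of Nr1d1 between WT stages is uncertain on that account. Rara lies on the same stretch: from the start of Thra to the end of Rara is 233 kb. Around the 3 receptors 9 neighbouring genes, picked after the receptors' values were seen, gave 7 tested. In DP1, where 12.9% of all tested genes were lower and 10.7% higher, 2 of the 7 were lower in Hdac3KO and 0 higher. They were Med24, a Mediator subunit gene next to Thra, at 14.7 FPKM in Hdac3KO and 25.3 in WT cells (-0.78 ± 0.25, q = 0.0137 in the authors' deposited table), and Cdc6, needed for DNA replication, at 15.8 FPKM in Hdac3KO and 26.2 in WT cells. In DP2, where 4.32% of all tested genes were lower, 1 was lower in Hdac3KO, the topoisomerase gene Top2a, at 109.8 FPKM in Hdac3KO and 260.3 in WT cells. Between stages Cdc6 and Top2a were lower in DP2 in both genotypes, and no neighbour was higher in any comparison (0 of 7 by Cuffdiff in each, and 0 at an unadjusted p under 0.05). Of all tested genes 16.8% were lower in DP2 in WT and 4.65% in Hdac3KO.

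**Figure D3:**
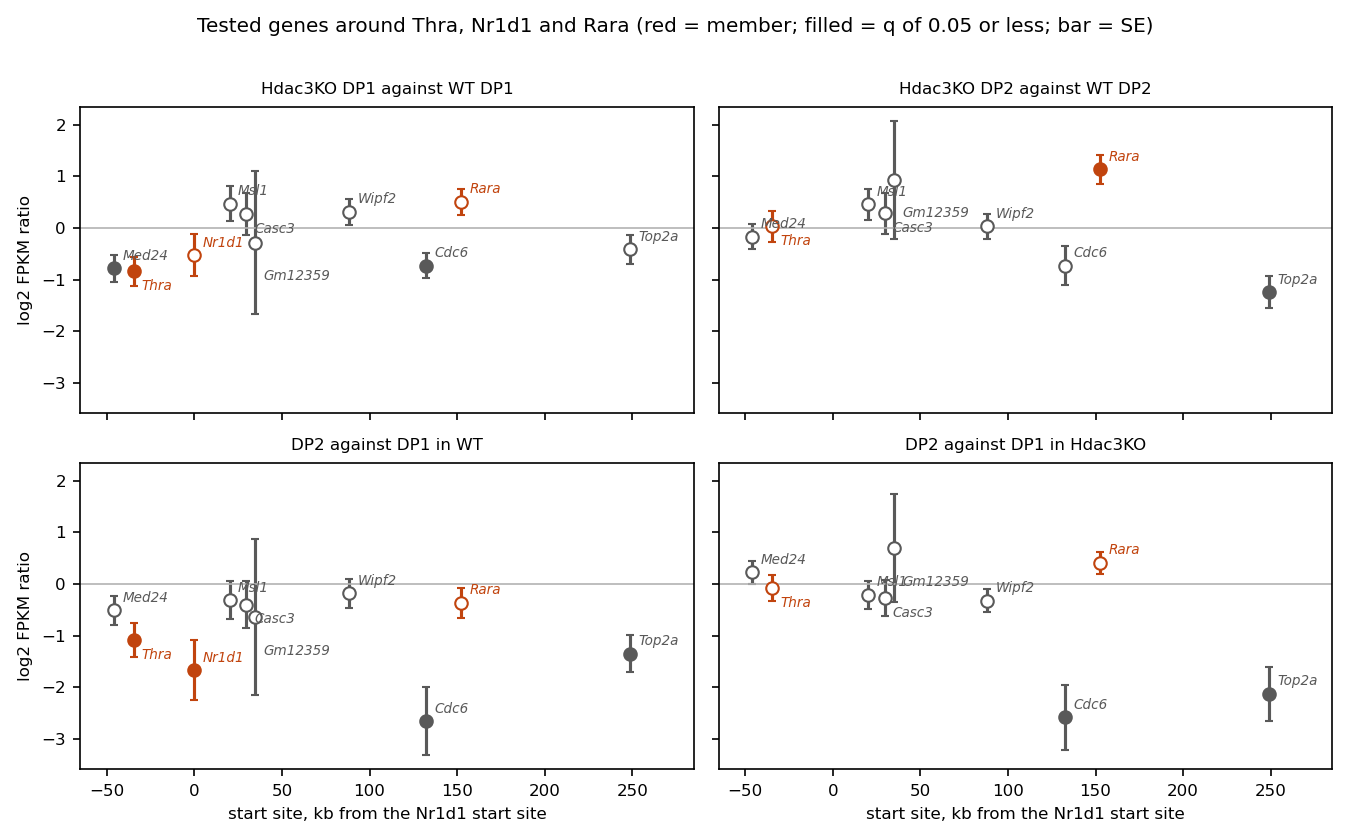
Log2 FPKM ratio (vertical axes, bars are the standard error worked back from the deposited p) of tested genes by the distance of their start site from that of Nr1d1 in kb (horizontal axes), in the 4 comparisons; red points are Thra, Nr1d1 and Rara, and filled points have a deposited q of 0.05 or less. Thra at -0.84 and Med24 at -0.78 are both called lower in Hdac3KO DP1 cells, and Rara at 1.13 is called higher in Hdac3KO DP2 cells, where the genes between them are not called.

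Of 21 thyroid hormone and vitamin D response genes, 3 to 5 were tested in each comparison and 0 were called by Cuffdiff. Of all tested genes 6.43% to 23.6% were called, depending on the comparison. At an unadjusted p under 0.05, 1 counted in DP2 between genotypes and 3 between WT stages, and after centring 1 was called lower in Hdac3KO DP2 cells and 2 higher in WT DP2 cells. Among all genes, centring took the calls lower in Hdac3KO DP2 cells from 461 to 612, and those higher in WT DP2 cells from 603 to 1181. For Thra and Vdr, few response genes were measured well enough to test. Vdr was at 0.357 FPKM in Hdac3KO and 0.236 in WT DP2 cells, and at 0.262 FPKM in Hdac3KO and 0.217 in WT DP1 cells. Vdr was not tested in any table. In the stage tables it was at 0.225 FPKM in DP2 and 0.247 in DP1 cells of WT, and at 0.323 FPKM in DP2 and 0.261 in DP1 cells of Hdac3KO.

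The glucocorticoid receptor gene Nr3c1 (authors' locus chromosome 18, 39410545 to 39487245, minus strand) was the most abundant of the 10 in every group. In DP2 it was at 57.3 FPKM in Hdac3KO and 88.4 FPKM in WT cells, a log2 change of -0.63 ± 0.23 that missed the threshold (p = 0.0075 and q = 0.0631 in the authors' deposited table). After centring it was -0.74 (q = 0.0214), and with the length trend removed -0.76 (q = 0.0169), both past it. In DP1 it was at 72.4 FPKM in Hdac3KO and 77.9 in WT cells (-0.11 ± 0.25, q = 0.804 in the authors' deposited table), 0.01 after centring. In WT it was at 86.3 FPKM in DP2 and 87.8 in DP1 cells (-0.02 ± 0.28, q = 0.961 in the authors' deposited table), and 0.30 after centring. In Hdac3KO it was at 52.1 FPKM in DP2 and 73.0 in DP1 cells (-0.49 ± 0.21, p = 0.0205 and q = 0.187 in the authors' deposited table). Hdac3KO DP2 was thus the group with the lowest level.

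Among 27 glucocorticoid receptor targets and chaperones, 22 to 24 were tested, with a different split of calls in each comparison. In DP1, 6 of 22 were lower in Hdac3KO and 0 higher by Cuffdiff as deposited (8 lower and 3 higher at an unadjusted p under 0.05), with a median log2 change of -0.17 beside -0.10 for all tested genes. Of all tested genes 12.9% were lower as deposited and 10.7% higher, 23.6% in all. After centring 4 were lower and 2 higher, and with the length trend removed 3 were lower and 3 higher. Fkbp4, a co-chaperone of steroid receptors, was at 43.7 FPKM in Hdac3KO and 111 in WT DP1 cells (-1.35 ± 0.33, q = 0.000879 in the authors' deposited table). Hsp90ab1, an Hsp90 gene, was at 395 FPKM in Hdac3KO and 753 in WT DP1 cells, which was not called with the length trend removed. Fkbp5, a co-chaperone and a classic glucocorticoid target, was at 57.3 FPKM in Hdac3KO and 103.7 in WT DP1 cells (-0.86 ± 0.26, q = 0.00806 in the authors' deposited table). Rgs2, a regulator of G protein signals, was at 9.37 FPKM in Hdac3KO and 18.3 in WT DP1 cells.

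In DP2, 4 of 23 genes of this list were higher in Hdac3KO and 2 lower, with a median of 0.04 beside 0.10. Of all tested genes 6.44% were higher and 4.32% lower. The target genes Tsc22d3 (GILZ), Klf13 and Txnip rose. Tsc22d3 was at 55.8 FPKM in Hdac3KO and 22.5 in WT DP2 cells (1.31 ± 0.32, q = 0.00134 in the authors' deposited table), while in DP1 it was at 57.1 FPKM in Hdac3KO and 49.6 in WT cells and was not called. Klf13, a zinc finger repressor, was at 92.3 FPKM in Hdac3KO and 35.0 in WT DP2 cells, and Txnip, an inhibitor of thioredoxin, at 235 FPKM in Hdac3KO and 92.3 in WT DP2 cells. Il7r, the IL-7 receptor α chain, fell to 0.653 FPKM in Hdac3KO DP2 cells, against 10.2 FPKM in WT DP2 cells (-3.96 ± 1.21, q = 0.0159 in the authors' deposited table). Between stages in WT, 9 of 24 were lower in DP2 and 3 higher as deposited, and 5 were lower and 4 higher after centring, or 3 lower and 4 higher with the length trend removed. Of all tested genes 16.8% were lower and 5.56% higher as deposited. Fkbp5 fell to 37.2 FPKM in DP2, against 117 FPKM in DP1 cells of WT (-1.66 ± 0.41, q = 0.000835 in the authors' deposited table), and Tsc22d3 fell to 21.6 FPKM in DP2, against 56.5 in DP1. In Hdac3KO, 4 of 22 were lower in DP2 and 3 higher, where 4.65% of all tested genes were lower and 1.78% higher. Fkbp5 fell there too, to 25.4 FPKM in DP2, against 57.4 in DP1, while Rasd1, a glucocorticoid-induced Ras protein, was at 26.2 FPKM in DP2 and 11.8 in DP1, and Bcl2l11, the proapoptotic protein Bim, at 31.8 FPKM in DP2 and 16.0 in DP1. Tsc22d3 was at 50.7 FPKM in DP2 and 57.1 in DP1 cells of Hdac3KO and was not called.

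Ppard, the fatty acid receptor PPARδ, was not called in any comparison. It was at 6.27 FPKM in Hdac3KO and 4.67 in WT DP2 cells (0.42 ± 0.29, q = 0.398 in the authors' deposited table), and at 6.04 FPKM in Hdac3KO and 5.25 in WT DP1 cells (0.20 ± 0.27, q = 0.630 in the authors' deposited table). Between stages it was at 4.39 FPKM in DP2 and 6.02 in DP1 cells of WT (-0.46 ± 0.32, q = 0.309 in the authors' deposited table), and at 5.67 FPKM in DP2 and 5.99 in DP1 cells of Hdac3KO. Of 23 PPAR targets of fatty acid use, 16 were tested in DP1, where 4 were lower in Hdac3KO and 0 higher by Cuffdiff as deposited, or 7 lower and 0 higher at an unadjusted p under 0.05. Of all tested genes 12.9% were lower as deposited and 10.7% higher, 23.6% in all. The list's median log2 change was -0.48 beside -0.10 for all tested genes. Cpt2, an enzyme of the mitochondrial use of long-chain fatty acids, was at 2.51 FPKM in Hdac3KO and 7.14 in WT DP1 cells (-1.51 ± 0.37, q = 0.000879 in the authors' deposited table). Acadl, an acyl-CoA dehydrogenase, was at 27.3 FPKM in Hdac3KO and 69.5 in WT DP1 cells (-1.35 ± 0.33, q = 0.000879 in the authors' deposited table), and Plin2, a lipid droplet coat protein, at 8.78 FPKM in Hdac3KO and 20.99 in WT DP1 cells. Angptl4, a secreted lipase inhibitor, was at 1.25 FPKM in Hdac3KO and 3.14 in WT DP1 cells, and it was not called with the length trend removed, which left 3 lower. In DP2, where 10.8% of all tested genes were called, 0 of 16 were called by Cuffdiff, and 3 were lower at an unadjusted p under 0.05. Between WT stages 3 of 17 were lower in DP2, of which 1 stayed called after centring, where 16.8% of all tested genes were lower as deposited. Between Hdac3KO stages 0 of 15 were called by Cuffdiff and 0 had an unadjusted p under 0.05, where 6.43% of all tested genes were called.

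**Figure D4:**
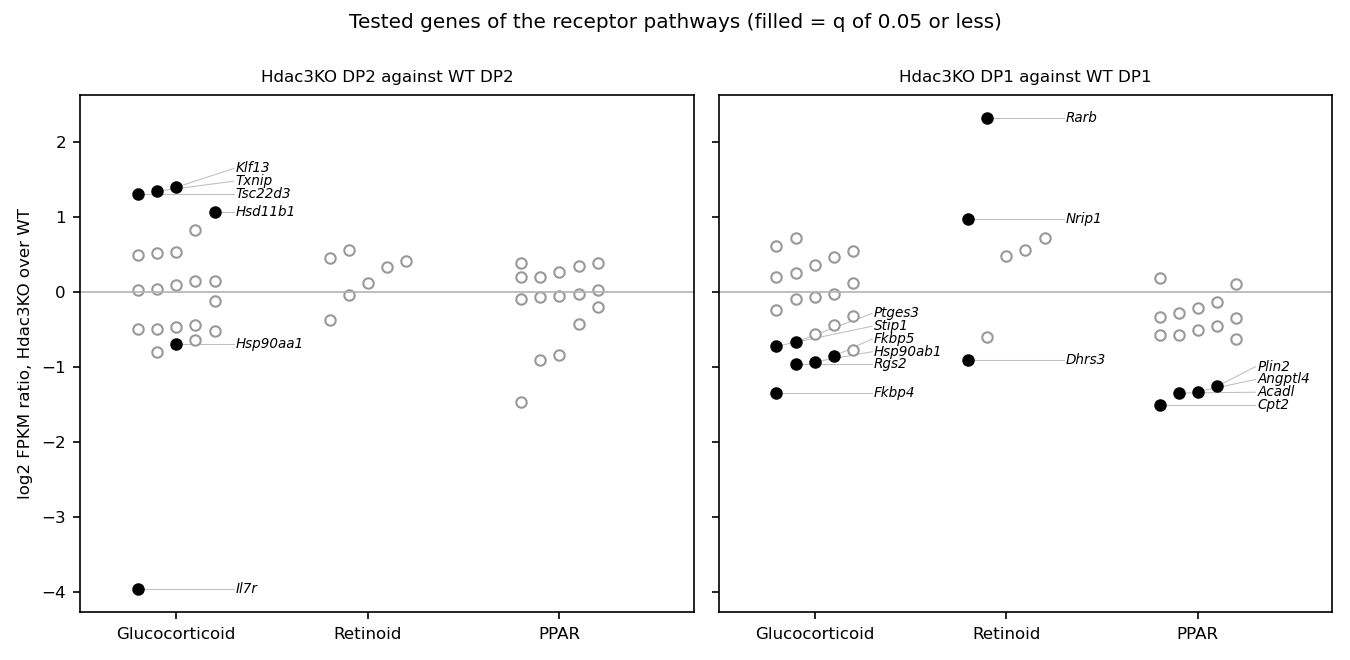
Log2 FPKM ratio of Hdac3KO over WT (vertical axis) for every tested gene of 3 lists (horizontal axis, spread sideways for legibility), in DP2 on the left and DP1 on the right; filled, named points have a deposited q of 0.05 or less. In DP1 the called glucocorticoid and PPAR genes all lie under 0, from Fkbp4 at -1.35 and Cpt2 at -1.51 upward, and in DP2 Klf13 at 1.40 and Il7r at -3.96 mark the ends of the glucocorticoid list.

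Whether the effect of genotype differed between DP2 and DP1 was tested from the difference of the 2 log2 changes, with a normal p, two-sided, adjusted over 10144 genes. It was called for 0 of 6 receptors, where 2.08% of all genes were called, and 2 receptors had an unadjusted p under 0.05. They were Nr1d2, with a difference of -1.20 ± 0.48 (95% interval -2.14 to -0.25), and Thra, with a difference of 0.87 ± 0.41 (95% interval 0.07 to 1.68). Their unadjusted p-values were 0.0132 for Nr1d2 and 0.0328 for Thra, and their adjusted p-values from this fit across all genes were 0.153 for Nr1d2 and 0.225 for Thra. For Rara the difference was 0.62 ± 0.37 (95% interval -0.11 to 1.36), and its adjusted p-value was 0.360, so its effect in DP2 was not shown to differ from that in DP1. Computed from the stage tables, which hold the same libraries, 0 of 6 were called, where 3.13% of all genes were called. There 3 receptors, Rara, Nr1d2 and Thra, had an unadjusted p under 0.05. Rara's difference by that route was 0.77 ± 0.36, with an adjusted p-value of 0.187. With standard errors taken from the deposited test statistic instead, 0 of 6 were called, where 5.25% of all genes were called. Thra's difference was then 0.87 ± 0.81 (95% interval -0.71 to 2.46), so whether its interval excludes 0 depends on the standard error used. With those standard errors the intervals of Nr1d2 (-2.23 to -0.17) and Nr3c1 (-0.99 to -0.05) excluded 0.

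The 37 other nuclear receptor genes were read beside these 10. In DP1, 11 of them were tested, and 4 were higher in Hdac3KO and 1 lower. Of all tested genes 10.7% were higher there and 12.9% lower. Rarb, already counted above with the retinoid genes, was among the higher ones. Beside Rarb, Thrb, the thyroid hormone receptor β, was at 3.85 FPKM in Hdac3KO and 0.949 in WT DP1 cells (2.02 ± 0.50, q = 0.000879 in the authors' deposited table), and Rorb at 18.1 FPKM in Hdac3KO and 6.27 in WT DP1 cells. In DP2, 13 were tested, with 2 higher and 2 lower, where 6.44% of all tested genes were higher and 4.32% lower. Rorb, at 12.8 FPKM in Hdac3KO and 3.41 in WT DP2 cells, was among the higher ones. The lower ones were Nr4a3, at 4.66 FPKM in Hdac3KO and 21.3 in WT DP2 cells (-2.19 ± 0.54, q = 0.00134 in the authors' deposited table), and Nr4a1, at 31.3 and 63.1 FPKM in the same groups, both immediate early genes of T cell receptor signals. Between stages in WT, 5 of 13 were higher in DP2 and 4 lower as deposited, and 6 were higher and 1 lower after centring. Of all tested genes 5.56% were higher and 16.8% lower as deposited. Between stages in Hdac3KO 1 of 12 was higher, Nr4a1, at 28.4 FPKM in DP2 and 3.56 in DP1 cells, and 1 was lower, Rorb. Of all tested genes 1.78% were higher there and 4.65% lower.

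**Figure D5:**
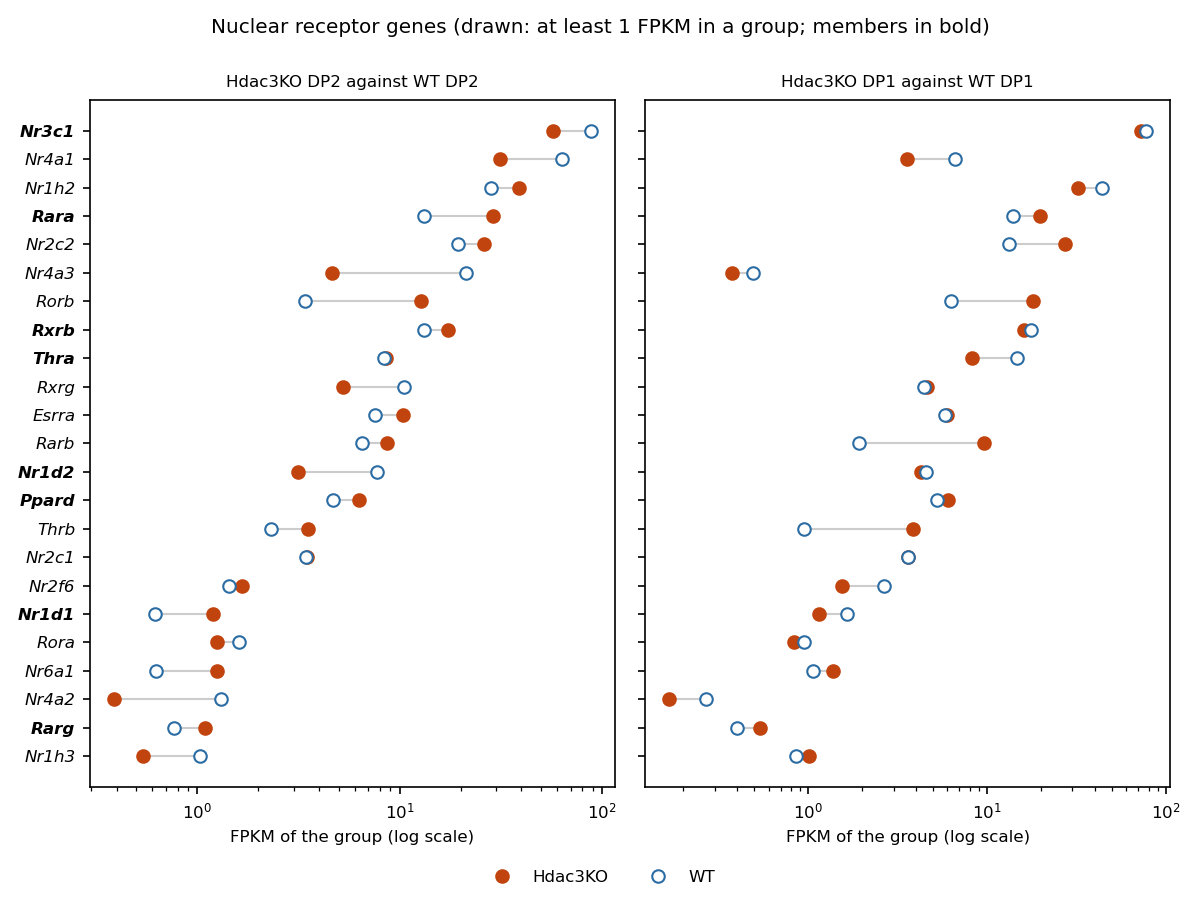
FPKM (horizontal axes, log scale) of nuclear receptor genes that reach 1 FPKM in a genotype table (rows, the 10 receptors described here that do so in bold), in DP2 on the left and DP1 on the right, with filled red points for Hdac3KO and open blue points for WT; each point is the authors' 1 value for a group. Nr3c1 is the highest of the genes drawn in every group, and Rarb in DP1 (9.57 FPKM in Hdac3KO, 1.92 in WT) and Nr4a3 in DP2 (4.66 FPKM in Hdac3KO, 21.3 in WT) show wide gaps.

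Cofactors that these receptors share were read between genotypes. Of 14 corepressor genes 12 were tested in DP1, 5 of which were higher in Hdac3KO and 1, Hdac3 itself, lower, where 10.7% of all tested genes were higher and 12.9% lower. Tbl1xr1, a subunit of the NCoR complex, was at 100.3 FPKM in Hdac3KO and 28.9 in WT DP1 cells (1.79 ± 0.44, q = 0.000879 in the authors' deposited table), and at 95.1 FPKM in Hdac3KO and 36.5 in WT DP2 cells (1.38 ± 0.34, q = 0.00134 in the authors' deposited table). Ncor1, which encodes NCoR, was at 145 FPKM in Hdac3KO and 83.6 in WT DP1 cells and was among the 5. Nrip1, already counted above with the retinoid genes, was also among the 5. In DP2, Ncor1 was at 135 FPKM in Hdac3KO and 113 in WT cells and was not called. Ncor1 is named here after its values were seen. With the length trend removed, 3 of the 5 stayed higher in DP1. In DP2, where 6.44% of all tested genes were higher and 4.32% lower, 2 of 13 were higher, Tbl1xr1 and its relative Tbl1x, at 106 FPKM in Hdac3KO and 59.6 in WT cells, and Hdac3 was lower. Of 17 coactivator genes 16 were tested, and in DP1 3 were higher in Hdac3KO and 1 was lower, or 1 higher and 1 lower with the length trend removed. These 4 of 16 are close to the 23.6% called among all tested genes. Ncoa3, a p160 coactivator, was at 25.5 FPKM in Hdac3KO and 11.9 in WT DP1 cells (1.09 ± 0.27, q = 0.000879 in the authors' deposited table), and Prmt1, an arginine methyltransferase, at 31.9 FPKM in Hdac3KO and 71.8 in WT DP1 cells. In DP2, Asxl1 was the 1 coactivator called of 16, where 10.8% of all tested genes were called, at 37.1 FPKM in Hdac3KO and 20.4 in WT cells.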

How the data were processed

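RNA of sorted DP thymocytes was sequenced from 8 samples, 2 per group. Cuffdiff 2.1.1, TopHat2 2.0.11, Trimmomatic 0.32 and mm10 are listed in the submitters' processing notes, while the annotation, the strand setting and the order of steps are not given in the sources used here. The authors deposited 4 Cuffdiff tables with 1 FPKM per gene and group, a test statistic (a score), a p-value and a q-value. The deposited FPKM were scaled within each table, and the same group's values had median ratios between tables (stage over genotype table) of 0.908 to 1.13. The smallest deposited p-value is 5e-05. Total counts are unknown: genes under 0.3 FPKM showed no common step, so whole reads were not recovered.

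Log2 ratios were computed from the deposited FPKM with Python 3.11.15 and pandas 2.3.3, since a spreadsheet had damaged the authors' own log2 column. Each standard error is the absolute log2 change divided by the two-sided normal quantile that matches the deposited p, which makes it an upper bound at the smallest p and imprecise for p near 1. The difference of 2 log2 changes was tested with scipy 1.17.1, with Benjamini-Hochberg adjustment, and this step was tested on simulated data. The simulated errors were drawn from the same standard errors, so the simulation could not show whether those are right. Centring subtracted the median log2 change over genes whose 2 FPKM were each 10 or more. The length trend was a lowess curve (fraction 0.3, statsmodels 0.14.6) over the longest GENCODE M21 transcripts, known for 90.2% to 90.4% of tested genes. The file's locus starts count from 0 and were moved to count from 1. Promoter windows are from RefSeq (GRCm38.p6).

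All 10 receptors are named. From each gene list and comparison at most 4 genes are named, those past q of 0.05 with the largest change and 1 FPKM or more in 1 of the groups, and exceptions are said in place. The promoters were to be shown only for receptors that move together, and those of called receptors are shown instead. The receptors, gene lists and tests were chosen with earlier results of these data known. Alternatives were a q of 0.01 or 0.10, centring, adjustment over all 4 tables, a minimum log2 change of 1, removal of the length trend, a minimum of 5 FPKM, a pseudocount of 1, FPKM from the other tables, and for the difference of changes the stage tables and other standard errors. A few genes of the lists are not reported here and are not drawn.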

Additional observations from a re-analysis of the deposited data

How the results depend on the processing

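Of 67 recomputed counts of called receptors, 55 stayed within 1.5 times the value as reported and 12 did not. Of 104 recomputed single changes 91 kept direction and side of the threshold. The pseudocount kept the deposited q and could not turn a sign, so its results were fixed in advance. FPKM from the other tables come from the same libraries. These parts of the 55 and the 91 therefore say little about robustness. The rise of Rara in DP2 and the count of 0 receptors for the difference between stages held in every alternative that was run for them. So did the counts of 0 between Hdac3KO stages. However, a count of 0 could not rise at a q of 0.01, with a log2 change of at least 1 or with the pseudocount. The count of receptors lower in Hdac3KO DP1 cells, 1 as deposited, was 0 at a q of 0.01, 0 with a log2 change of at least 1 and 0 with the length trend removed. The count lower in Hdac3KO DP2 cells, 1 as deposited, was 0 at a q of 0.01, and 2 (Nr1d2 and Nr3c1) at a q of 0.10, with adjustment over all 4 tables, after centring and with the length trend removed. The count lower between WT stages, 2 as deposited, was 1 (Thra) at a q of 0.01, 1 (Thra) with a minimum of 5 FPKM, and 0 after centring or with the length trend removed. The lower calls among all genes moved too. Between WT stages they were 1818 as deposited, 703 after centring and 465 with the length trend removed. In DP1 they were 1358 as deposited and 555 with the length trend removed, and in DP2 461 as deposited, 612 after centring and 570 with the length trend removed. Signs turned for changes that were not called: Rxrb in DP1 was 0.12 with the length trend removed, Nr1d2 in DP1 0.017 and Nr3c1 in DP1 0.0077 after centring, Thra in DP2 -0.078 after centring and -0.066 with the length trend removed, and Nr3c1 between WT stages 0.30 after centring. The calls lost or gained by centring or length are given with Thra, Nr1d1 and Nr3c1 above, and their cause was not tested. With standard errors multiplied by 1.5, the difference between stages was called for 0 genes of the whole table. Larger standard errors can only remove calls, so the 0 for receptors was fixed in that alternative. No paired analysis was possible because the tables hold 1 value per group, and leaving out each library in turn was not run for the same reason. Receptors under about 1 FPKM (Rarg, Rxra, Vdr and, in 2 tables, Nr1d1) could not be tested, and at unknown depth a small change in them was not detectable.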

Other observations

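For the receptors with the widest called changes, Nr1d1 and Nr1d2, the genes nearest in pattern were found by Euclidean distance over the 4 log2 changes, with 8230 genes as candidates that were tested in all 4 tables and reached 5 FPKM in a group, leaving out predicted genes and merged names. Nr1d1 itself lies under 2 FPKM in every group and was not tested in 2 of the tables, so 2 of its 4 changes are untested values. Nearest to Nr1d1 were Rps28, a ribosomal protein gene, at a distance of 0.0336, then Prnp, the prion protein gene, at 0.197 and Snrnp27, a spliceosome gene, at 0.221. Nearest to Nr1d2 were Chd9, a chromatin remodeller gene, at 0.0595, then Caprin2 at 0.109 and the microRNA gene Mir215 at 0.143. The 4 comparisons share libraries, so these distances rest on 4 group values each.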
